A study of Mus musculus with 7 samples.

Results

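The core circadian clock genes are the 10 genes Arntl, Clock, Per1, Per2, Per3, Cry1, Cry2, Nr1d1, Nr1d2 and Dbp. They were chosen by gene symbol, through the probe set with the highest mean over all 7 arrays, and all 10 were found among the 19939 genes measured. Each was read by 1 probe set. RNA came from whole extensor digitorum longus, a mainly fast-twitch muscle of the lower hindlimb, and each mouse had its own array of a single colour. The groups were 3 mice labelled as double knockouts of AMPK α1 and α2, the catalytic subunits of AMP-activated protein kinase, and 4 wild type mice. C57/Bl6 and SV129 strains were mixed in the background of all 7. The labels give no age, sex, feeding state, exercise state or hour of collection, and they name neither the tissues that carried the deletion nor what drove it. The p-values for genotype differences below set each difference against the spread among mice of the same genotype. Precision is set by how few arrays there are.

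The clock is a loop of transcription that runs in nearly every cell. ARNTL, also called BMAL1, pairs with CLOCK and switches on genes that carry E-box sequences, among them the Per, Cry, Nr1d and Dbp genes. PER and CRY proteins then block that pair. NR1D1 and NR1D2, also called REV-ERB α and β, repress Arntl through ROR elements, so Arntl transcripts in mouse tissues peak at the opposite time of day from those of Nr1d1 and Dbp. AMPK has been described as a kinase that marks CRY proteins for breakdown, which makes a comparison of clock transcripts with and without AMPK a natural question in this muscle.

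Sequences through which the loop acts are shown for 7 of the clock genes whose promoter held one, because the loop's opposite arms act through them. Promoter windows from RefSeq (GRCm38.p6), running from 250 bases before to 50 bases after an annotated start, were found for 9 of the 10 core genes. Motifs were searched on both strands. These were the E-box CACGTG, the D-box TTATGTAA or TTATGCAA, and the ROR element TAGGTCA or TGGGTCA. Matches are in capitals, and each sequence is written 5′ to 3′ on the strand of its gene.
Arntl, chr7:113207530-113207559, plus strand, ROR element just after the start: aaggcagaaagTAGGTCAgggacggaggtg
Nfil3, chr13:52981040-52981081, minus strand, ROR element read on the opposite strand: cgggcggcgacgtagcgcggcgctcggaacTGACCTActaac
Per3, chr4:151044786-151044900, minus strand, 2 D-boxes: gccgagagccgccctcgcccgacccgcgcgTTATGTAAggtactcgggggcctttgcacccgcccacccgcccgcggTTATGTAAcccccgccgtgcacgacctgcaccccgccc
Per1, chr11:69098753-69098948, plus strand, E-box and D-box: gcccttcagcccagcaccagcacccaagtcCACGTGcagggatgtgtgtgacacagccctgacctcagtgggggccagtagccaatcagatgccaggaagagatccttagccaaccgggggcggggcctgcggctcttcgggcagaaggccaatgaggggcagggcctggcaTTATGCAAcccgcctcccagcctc
Cry1, chr10:85185079-85185144, minus strand, E-box: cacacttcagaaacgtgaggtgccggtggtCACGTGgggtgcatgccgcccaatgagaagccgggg
Tef, chr15:81802516-81802581, plus strand, E-box: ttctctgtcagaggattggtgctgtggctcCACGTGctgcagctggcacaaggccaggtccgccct
Ciart, chr3:95882237-95882374, minus strand, 3 E-boxes: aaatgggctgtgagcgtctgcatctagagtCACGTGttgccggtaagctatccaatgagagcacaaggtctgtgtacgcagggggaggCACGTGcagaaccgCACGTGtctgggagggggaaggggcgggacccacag

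Of the 9 core genes with a window, 2 held an E-box, 2 a D-box and 1 a ROR element. These counts are per gene, and the 9 genes had 13 windows, since some had more than 1 annotated start. Among all 32851 promoter windows of this length, 7.15% held the E-box, 1.66% a D-box and 6.45% a ROR element. Those shares are per window, so they are not a like measure for the counts per gene. Of the 12 other clock genes with a window, 5 held a match, and the E-boxes of Bhlhe41 and of a second Tef window and the D-box of Timeless are not shown. The windows of Clock, Cry2, Nr1d1, Nr1d2 and Dbp held none of these letters, which says nothing about sites elsewhere in those genes.

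The labels were checked first. Prkaa1, which encodes the α1 subunit, read 9.09, 9.19 and 8.80 log2 units in knockout replicates 1 to 3, against 9.54, 9.48, 9.61 and 9.53 in wild type replicates 1 to 4. Prkaa2, which encodes α2, read 12.04, 11.95 and 12.04 in knockout muscle, against 12.31, 12.03, 12.28 and 12.28 in wild type muscle. For Prkaa1 the highest knockout array was still under the lowest wild type array, while wild type replicate 2 lay inside the knockout range for Prkaa2. Neither passed in limma after Benjamini-Hochberg adjustment over every tested probe set (adjusted p = 0.12 and 0.39). The sources used here do not name the deleted exons, and a probe outside them checks nothing, so the genotypes rest on the labels. The tissue label was checked with 10 fibre markers, all of which read between 11.85 and 14.29 on every array. Their differences, knockout minus wild type, ran from -0.25 for Mylk2, the skeletal muscle myosin light chain kinase, to 0.22 for Myh2, the myosin heavy chain of fast oxidative fibres. Markers of other cell types were also compared. In limma 2 of 10 macrophage, 0 of 8 endothelial, 0 of 5 adipocyte and 0 of 6 fibroblast markers passed an adjusted p of 0.05, where 0.0251% of all genes did. The mean of 10 macrophage markers was 8.95 to 9.11 in knockout and 8.26 to 8.47 in wild type arrays, and that of 8 endothelial markers was 9.29 to 9.41 in knockout and 9.60 to 9.77 in wild type arrays. The mean of the 5 adipocyte markers was 8.06 to 8.18 in knockout and 8.22 to 8.49 in wild type arrays. At an unadjusted p under 0.05 in limma, 9 of 10 macrophage and 2 of 6 fibroblast markers were higher, where 3.93% of all genes were. At the same threshold 5 of 8 endothelial and 3 of 5 adipocyte markers were lower, where 6.69% of all genes were. The fibroblast means overlapped, at 10.61 to 11.11 in knockout and 10.44 to 10.87 in wild type arrays. Single markers without overlap of the genotypes were 10 of 10 macrophage, 4 of 8 endothelial, 2 of 5 adipocyte and 2 of 6 fibroblast markers. Over all genes that share was 8.61%. The part of these cells in the clock values was not tested, and in whole muscle a change in the number of cells and a change in RNA per cell cannot be told apart.

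The genotypes were not separated by any core clock gene. With limma and Benjamini-Hochberg adjustment, 0 of the 10 genes passed an adjusted p of 0.05, where 0.0251% of all genes did (0.0201% higher and 0.00502% lower in knockout muscle). Their lowest adjusted p was 0.49, so the count was also 0 of 10 at an adjusted p of 0.10, where 0.361% of all genes passed. At an unadjusted p under 0.05 the count was again 0 of 10, where 10.6% of all genes passed (3.93% higher and 6.69% lower in knockout muscle). The 3 knockout arrays overlapped the 4 wild type arrays in each of the 10 genes, while 8.61% of all genes had no overlap. At these shares, counts of 0 in a list of 10 genes say little. The mean lay below wild type for 7 genes and above it for 3, and the median difference was -0.08 on the log2 scale, against 0.00 over all genes. The spread among mice of the same genotype was wide. The median within-genotype SD of the 10 genes was 0.25 log2 units, against 0.08 over all genes. That spread was not particular to the core list. Among lists taken up below, the median was 0.12 for other clock genes and 0.23 for clock output genes. It was 0.45 for glucocorticoid responsive, 0.45 for temperature responsive and 0.59 for immediate early genes.

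**Figure D1:**
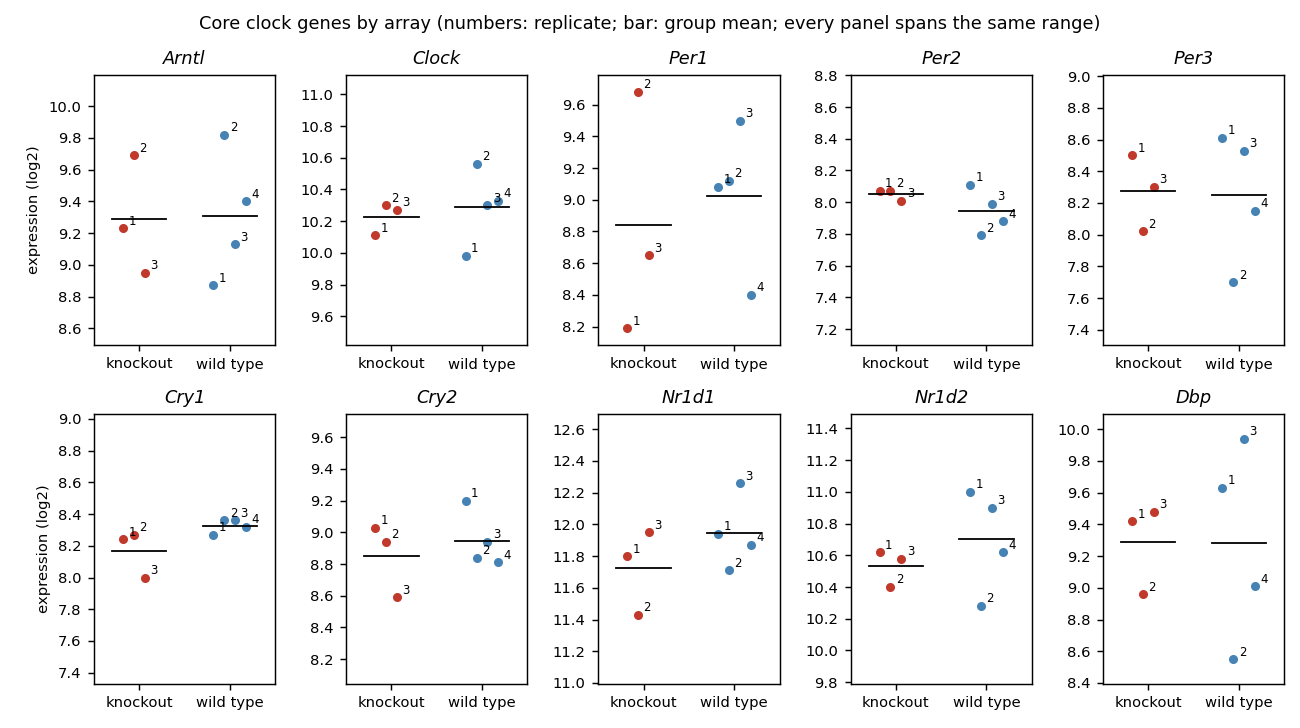
Expression of each core clock gene (log2 units) on the 3 knockout and 4 wild type arrays, with replicate numbers beside the points and a bar at each group mean. The genotypes overlap in every panel, and the points of Arntl, Per1, Per3 and Dbp spread widely within each genotype.

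The positive arm of the loop is Arntl and Clock. Arntl read 9.23, 9.69 and 8.95 in knockout muscle, against 8.87, 9.82, 9.13 and 9.40 in wild type muscle, where values run in the order of replicates here and below. Replicate 2 was the highest array of its genotype on both sides, and knockout replicate 3 and wild type replicate 1 were the lowest. The group means were 9.29 ± 0.37 (SD, n = 3) in knockout and 9.31 ± 0.41 (SD, n = 4) in wild type muscle. The log2 difference was -0.02 with a 95% interval of -0.62 to 0.59, an interval that holds sizeable changes of either sign. Among wild type arrays alone Arntl spanned 1.94-fold. Clock, the partner of Arntl, moved over a narrower range. It read 10.11, 10.30 and 10.27 in knockout muscle, against 9.98, 10.56, 10.30 and 10.33 in wild type muscle, and the extremes were again wild type replicates 1 and 2. Its difference was -0.06 ± 0.13 (SE).

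Dbp is an output of the loop, a PAR bZIP transcription factor that activates D-box genes. Dbp read 9.42, 8.96 and 9.48 in knockout muscle, against 9.63, 8.55, 9.94 and 9.01 in wild type muscle. Replicate 2 was the lowest array of its genotype on both sides, the reverse of its place for Arntl. Wild type arrays spanned 2.61-fold and knockout arrays 1.44-fold, yet the group means were almost level at 9.29 ± 0.29 (SD, n = 3) in knockout and 9.28 ± 0.62 (SD, n = 4) in wild type muscle. The 95% interval of the difference was -0.79 to 0.79. Only 0.537% of all genes had a larger within-genotype SD than the 0.51 of Dbp.

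Nr1d1 and Nr1d2 are the nuclear receptors that repress Arntl. Nr1d1 read 11.80, 11.43 and 11.95 in knockout muscle, against 11.94, 11.71, 12.26 and 11.87 in wild type muscle. Nr1d2 read 10.62, 10.40 and 10.58 in knockout muscle, against 11.00, 10.28, 10.90 and 10.62 in wild type muscle. Replicate 2 was the lowest of its genotype for both genes on both sides. The differences were -0.22 ± 0.16 (SE) for Nr1d1 and -0.17 ± 0.17 (SE) for Nr1d2, and neither passed (adjusted p = 0.71 and 0.78 in limma). Single arrays carried much of these values. Without knockout replicate 2 the difference of Nr1d1 was -0.067, without wild type replicate 1 that of Nr1d2 was -0.068, and without wild type replicate 2 that of Nr1d2 was -0.31.

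The Per genes encode the repressors whose proteins accumulate with CRY. Per3 read 8.50, 8.02 and 8.30 in knockout muscle, against 8.61, 7.70, 8.53 and 8.15 in wild type muscle, so its low arrays were those of Dbp. Per2 read 8.07, 8.07 and 8.01 in knockout muscle, against 8.11, 7.79, 7.99 and 7.88 in wild type muscle. The knockout values of Per2 lay within 0.06 log2 units of each other and inside the wild type range. The differences were 0.03 ± 0.23 (SE) for Per3 and 0.11 ± 0.08 (SE) for Per2. Per1, which is also induced quickly by outside stimuli, did not follow the other Per genes. It read 8.19, 9.68 and 8.65 in knockout muscle, against 9.08, 9.12, 9.50 and 8.40 in wild type muscle. Knockout replicates 1 and 2 were the lowest and the highest of the 7 arrays, 2.81-fold apart. The difference of -0.18 had a 95% interval of -1.10 to 0.74, and it was -0.60 without knockout replicate 2 (unadjusted p = 0.10 in limma, adjusted p = 0.68) and 0.14 without knockout replicate 1.

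Cry1 and Cry2 encode the cryptochromes, the main blockers of the ARNTL and CLOCK pair. Cry1 read 8.24, 8.27 and 8.00 in knockout muscle, against 8.27, 8.36, 8.36 and 8.32 in wild type muscle. The genotypes met at 8.27, and all other knockout values lay below all wild type values. Its difference of -0.16 ± 0.07 (SE), with a 95% interval of -0.32 to 0.01, had the smallest p of the 10 genes (unadjusted p = 0.058 in limma, adjusted p = 0.49). Without knockout replicate 3 it was -0.071. Cry2 read 9.03, 8.94 and 8.59 in knockout muscle, against 9.20, 8.84, 8.94 and 8.81 in wild type muscle. Its lowest array was the same knockout replicate 3, and its difference was -0.10 ± 0.13 (SE), or 0.034 without that array. That array had the lowest limma array weight, 0.294, against 0.765 to 1.99 in the others. With array weights in limma the difference was -0.089 for Cry1 (unadjusted p = 0.12, adjusted p = 0.51) and -0.031 for Cry2. Why that array had a low weight was not tested.

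**Figure D2:**
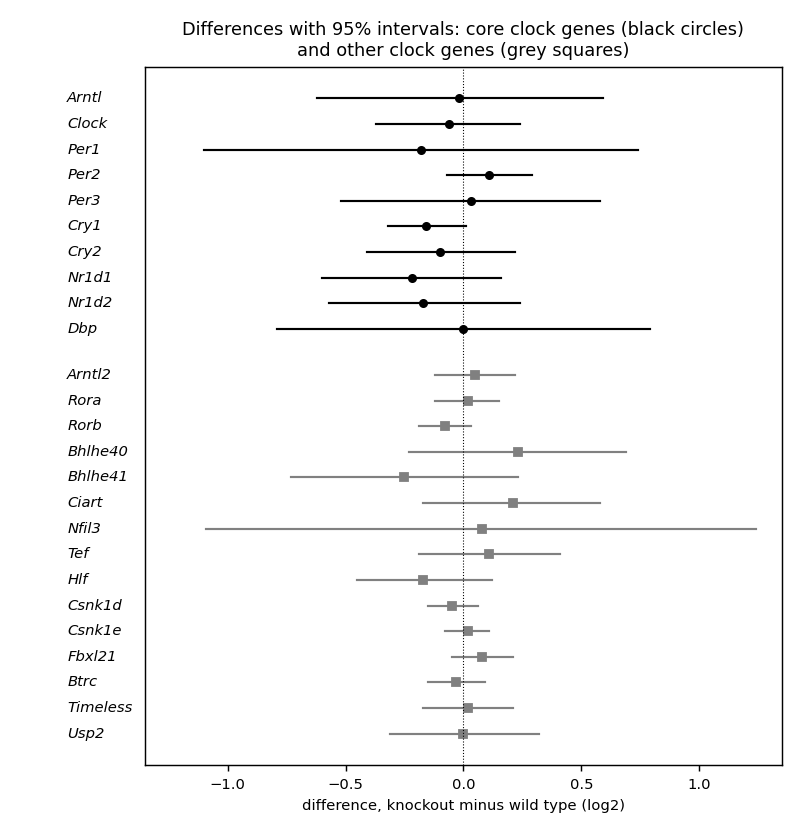
Log2 difference, knockout minus wild type, of the 10 core clock genes (black circles) and the 15 other clock genes (grey squares), with 95% intervals from limma. Every interval includes 0, and the widest are those of Nfil3, Per1 and Dbp.

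The other genes of the pathway were taken from a list of 18, of which 15 are reported here, each through a probe set with a single symbol. In limma 0 of the 15 passed an adjusted p of 0.05 in either direction, where 0.0251% of all genes did. At an unadjusted p under 0.05 the count was 0 of 15, where 10.6% of all genes passed. At these shares, counts of 0 in a list of 15 genes say little. Their median difference was 0.02, against 0.00 over all genes.

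Among partners and receptors, Arntl2, a paralogue of Arntl, differed by 0.05 ± 0.07 (SE), Rora, the receptor that activates Arntl through ROR elements, by 0.02 ± 0.06 (SE) and its relative Rorb by -0.08 ± 0.05 (SE). The E-box repressors moved more from mouse to mouse. Bhlhe40, also called DEC1, read 10.35, 10.87 and 10.24 in knockout muscle, against 10.52, 9.98, 10.46 and 10.07 in wild type muscle. Bhlhe41, or DEC2, read 10.04, 9.57 and 9.56 in knockout muscle, against 10.27, 9.52, 10.19 and 9.92 in wild type muscle. Their differences were 0.23 ± 0.20 (SE) and -0.25 ± 0.20 (SE), and without knockout replicate 2 that of Bhlhe40 was 0.036. Ciart, a repressor of the ARNTL and CLOCK pair, read 7.12, 7.80 and 7.18 in knockout muscle, against 7.18, 7.08, 7.18 and 7.20 in wild type muscle. Its high value came from knockout replicate 2 alone, which was also the highest of the 7 arrays in its second probe set.

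The D-box factors include the activators Tef and Hlf and the repressor Nfil3. Tef read 9.88, 9.66 and 9.78 in knockout muscle, against 9.89, 9.36, 9.78 and 9.62 in wild type muscle, with replicate 2 lowest in each genotype as for Dbp. Nfil3 read 9.40, 10.85 and 9.08 in knockout muscle, against 9.05, 10.52, 9.52 and 9.70 in wild type muscle. Replicate 2 was the highest of each genotype, as for Arntl, and Nfil3 spanned 3.42-fold among knockout and 2.77-fold among wild type arrays. The genotype differences were 0.11 ± 0.13 (SE) for Tef, 0.08 ± 0.49 (SE) for Nfil3 and -0.17 ± 0.12 (SE) for Hlf. That of Tef was 0.01 without wild type replicate 2, and leaving out knockout replicate 3 or knockout replicate 1 gave -0.068 or -0.28 for Hlf.

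Genes that act on clock proteins had differences within 0.08 log2 units of 0. Csnk1d and Csnk1e, casein kinases that phosphorylate PER proteins, differed by -0.05 ± 0.05 (SE) and 0.02 ± 0.04 (SE). Btrc, an F-box protein of a ubiquitin ligase for PER proteins, differed by -0.03 ± 0.05 (SE), and Fbxl21, a related F-box protein for cryptochromes, by 0.08 ± 0.05 (SE). Timeless, a partner of DNA replication forks that also binds clock proteins, differed by 0.02 ± 0.08 (SE). Usp2, a deubiquitinase with a strong daily rhythm in mouse tissues, read 11.48, 11.65 and 11.37 in knockout muscle, against 11.38, 11.81, 11.54 and 11.25 in wild type muscle, a difference of 0.00 ± 0.13 (SE).

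Set beside each gene's own mean over the 7 arrays, the clock genes showed 1 recurring arrangement that crossed the genotypes. Knockout replicate 2 and wild type replicates 2 and 4 lay above the mean for Arntl, by 0.39, 0.53 and 0.10 log2 units. The same 3 arrays lay below the mean for Dbp, by -0.33, -0.73 and -0.27, for Per3, by -0.24, -0.56 and -0.11, and for Tef, by -0.05, -0.35 and -0.09. For each of Dbp, Per3 and Tef all 7 arrays stood on the opposite side from Arntl. The count was 6 of 7 for Per2, Rora and Hlf and 5 of 7 for Nr1d1, Nr1d2, Cry2, Bhlhe41 and Btrc. It was 4 of 7 for Arntl2, Bhlhe40 and Fbxl21 and 3 of 7 for Per1, Csnk1d and Csnk1e. Clock, Cry1, Rorb, Ciart and Usp2 had 2 of 7, and Nfil3 and Timeless had 1 of 7. The counts ignore the size of a deviation, and their share over all genes was not computed. Wild type replicate 2 was the lowest of the 7 arrays for 4 core genes and the highest for 2. Wild type replicate 1 was the highest for 4 and the lowest for 2. Over all genes wild type replicate 2 was lowest for 11.2% and highest for 18.5%, and wild type replicate 1 was highest for 11.2% and lowest for 11.5%.

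**Figure D3:**
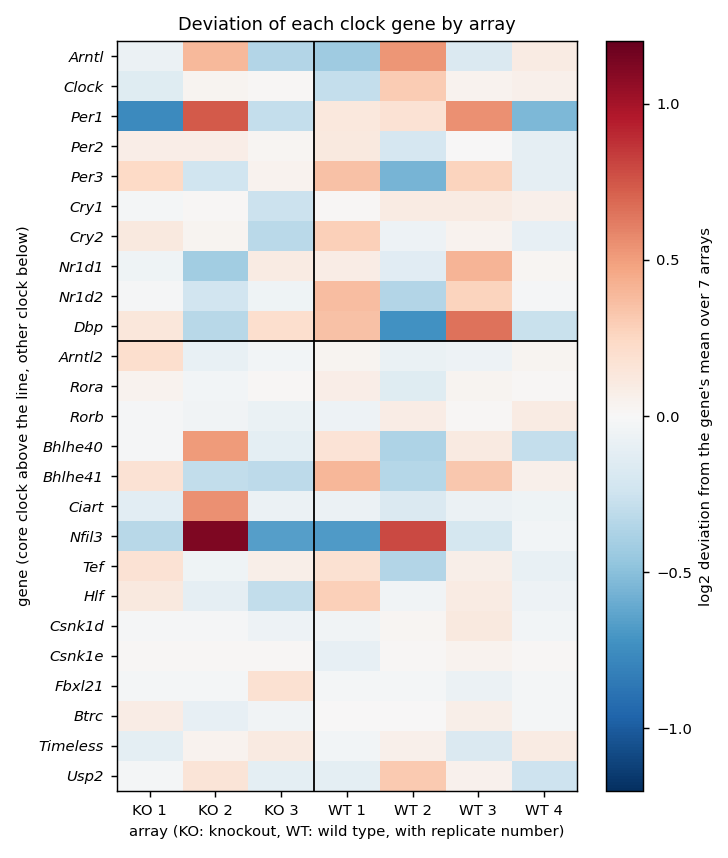
Deviation of each clock gene from its own mean over the 7 arrays (log2, red above and blue below), with knockout arrays left of the black line and wild type arrays right of it. In knockout replicate 2 and wild type replicate 2 Arntl and Nfil3 are red while Dbp, Per3, Nr1d1 and Nr1d2 are blue, and in wild type replicate 1 these colours are turned round.

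The relation was measured as a correlation over the 7 arrays, with exact two-sided permutation p-values and adjustment over the 19938 other genes. Arntl and Dbp gave Pearson's r = -0.86 (exact permutation p = 0.013, adjusted p = 0.84) and Spearman's rho = -0.89 (exact permutation p = 0.012, adjusted p = 1.0). With the genotype means subtracted r was again -0.86, and without knockout replicate 2 it was -0.86. Without the 2 arrays farthest from the median of Arntl, which were knockout replicate 2 and wild type replicate 2, r was -0.59 over 5 arrays. Without the 2 arrays farthest from the median of Dbp, which were wild type replicates 2 and 3, r was -0.94 over 5 arrays. The size of r thus depended on which arrays were left out, and it was below 0 each time. No r is given within a single genotype, since the genotypes hold only 3 and 4 arrays. The values of r over 5 arrays, here and below, also rest on few points and are descriptions.

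Other core genes were set against Arntl in the same way. Per3 gave r = -0.89 (exact permutation p = 0.0075, adjusted p = 0.81) and rho = -0.89 (exact permutation p = 0.012, adjusted p = 1.0), with r = -0.57 over the 5 remaining arrays. Nr1d2 gave r = -0.83 (exact permutation p = 0.02, adjusted p = 0.84) and rho = -0.77 (exact permutation p = 0.049, adjusted p = 1.0), with r = -0.49 over 5 arrays. Nr1d1 was weaker, at r = -0.69 (exact permutation p = 0.082, adjusted p = 0.97) and rho = -0.79 (exact permutation p = 0.048, adjusted p = 1.0), with r = -0.22 over 5 arrays. Clock went with Arntl, at r = 0.76 (exact permutation p = 0.041, adjusted p = 0.90) and rho = 0.75 (exact permutation p = 0.066, adjusted p = 1.0), with r = 0.56 over 5 arrays. The closest of the 24 other clock genes was Nfil3. Nfil3 gave r = 0.95 (exact permutation p = 0.0018, adjusted p = 0.68) and rho = 0.93 (exact permutation p = 0.0067, adjusted p = 1.0), and r was still 0.94 over 5 arrays. Rora had the next smallest p of the other clock genes, at r = -0.85 (exact permutation p = 0.0044, adjusted p = 0.73), with r = -0.55 over 5 arrays. Per2 gave r = -0.59 (exact permutation p = 0.16), with r = -0.74 over 5 arrays. Cry1 went the way of Arntl, at r = 0.50 (exact permutation p = 0.28), with r = 0.48 over 5 arrays. None of these relations passed the adjustment over all genes. Per1 and Cry2 showed no steady relation to Arntl, with r = 0.28 (exact permutation p = 0.53, adjusted p = 1.0) and rho = 0.25 (exact permutation p = 0.59, adjusted p = 1.0) for Per1, and r = -0.14 (exact permutation p = 0.76, adjusted p = 1.0) and rho = -0.32 (exact permutation p = 0.50, adjusted p = 1.0) for Cry2. For Per1 r was -0.47 over 5 arrays and for Cry2 it was -0.16. The hour at which each muscle was taken is not in the labels, and its part in these arrangements was not tested.

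**Figure D4:**
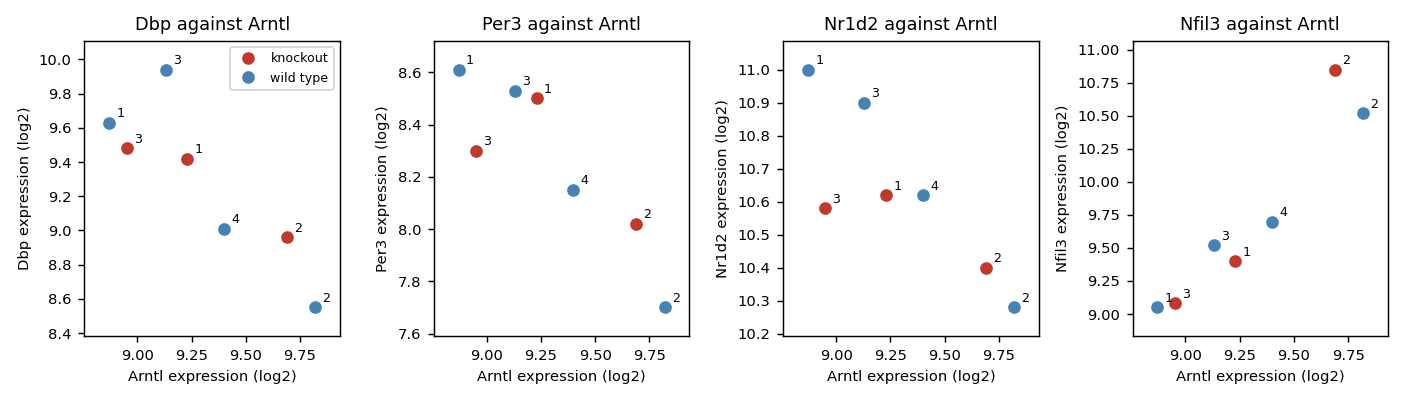
Expression of Dbp, Per3, Nr1d2 and Nfil3 (y axes, log2) against Arntl (x axes, log2), with 1 point per array, numbered by replicate, in red for knockout and blue for wild type. Dbp, Per3 and Nr1d2 are low and Nfil3 is high where Arntl is high, and points of the 2 genotypes are mixed along each slope.

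Genes outside the core list whose pattern was most like that of Arntl or Dbp were ranked by Pearson's r over the 7 arrays, among 1448 genes with an SD of at least 0.2 over those arrays. The 5 nearest to Arntl were Zbtb16 (r = 0.96), Stip1, Chordc1, Nfil3 and Gm16062 (r = 0.95 each). Zbtb16, a zinc finger transcription factor that responds to glucocorticoids, read 11.62, 12.16 and 11.44 in knockout muscle, against 11.10, 12.36, 11.62 and 11.63 in wild type muscle. The 5 nearest to Dbp were Parp8 (r = 0.94), Coq8a (r = 0.92), 3425401B19Rik and Fam214a (r = 0.91 each) and Tcap (r = 0.89). Tcap, a Z-disc protein that caps titin, read 11.69, 11.47 and 11.51 in knockout muscle, against 11.90, 10.93, 12.01 and 11.65 in wild type muscle. Ranking so many genes by likeness selects high values of r, so these are descriptions.

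Knockout replicate 2 stood apart in genes induced by acute stimuli. It was the highest of the 7 arrays for 22 of 24 immediate early genes, whose transcripts appear quickly after a stimulus, where it was the highest for 10.2% of all genes. The mean of the 24 was 8.45, 10.08 and 8.67 in knockout arrays, against 8.33, 8.62, 8.47 and 8.38 in wild type arrays. In limma 0 of the 24 passed an adjusted p of 0.05, where 0.0251% of all genes did. At an unadjusted p under 0.05, where 3.93% of all genes were higher, 2 of the 24 were higher. Those with the largest differences were the transcription factors Atf3 at 2.09, Fos at 1.48 and Egr1 at 1.31, which were 1.42, 0.20 and 0.35 without that array. Per1, Ciart, Bhlhe40 and Nfil3 were also highest on that array. Its part in their values was not tested, beyond the values given above without it.

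**Figure D5:**
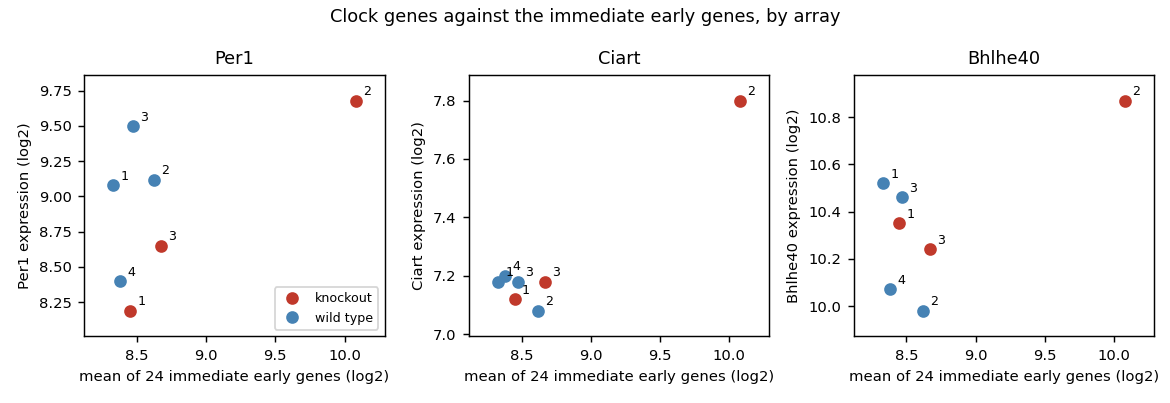
Expression of Per1, Ciart and Bhlhe40 (y axes, log2) against the mean of 24 immediate early genes (x axes, log2), with 1 point per array, numbered by replicate, in red for knockout and blue for wild type. Knockout replicate 2, at a mean of 10.08, lies alone at the upper right of all 3 panels, while Per1 varies among the other arrays at similar means.

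Lists of genes tied to the daily cycle by output, hormones or temperature also showed no called member. Only 0.0251% of all genes passed an adjusted p of 0.05, so a count of 0 in lists this short says little. Of 11 clock output genes 9 were measured, and in limma 0 passed an adjusted p of 0.05. At an unadjusted p under 0.05, where 6.69% of all genes were lower, 1 was lower. That was Alas1, the first enzyme of haem synthesis, at -0.35 ± 0.15 (SE). It was -0.22 without knockout replicate 1, and its unadjusted p was 0.058 after quantile normalization and 0.13 with array weights in limma (adjusted p = 0.47 as fitted). Pdk4, the kinase that holds back pyruvate oxidation in fasting, read 13.12, 13.39 and 12.61 in knockout muscle, against 11.29, 12.81, 12.89 and 12.66 in wild type muscle. Its difference was 0.62 ± 0.41 (SE), or 0.25 without wild type replicate 1, which alone read low. Lpin1, a phosphatidate phosphatase and transcriptional coactivator, differed by -0.34 ± 0.19 (SE), or -0.19 without wild type replicate 2.

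Of 12 glucocorticoid responsive genes 0 passed in limma. At an unadjusted p under 0.05, where 3.93% of all genes were higher, 1 was higher. That was the metallothionein Mt2, a metal-binding protein, which read 12.07, 13.88 and 12.37 in knockout muscle, against 11.66, 11.76, 11.55 and 11.48 in wild type muscle. Its genotypes did not overlap, and its difference was 1.16 ± 0.40 (SE), or 0.61 without knockout replicate 2. Mt1 differed by 1.17 ± 0.66 (SE) and Cebpd, a stress-induced transcription factor, by 0.39 ± 0.47 (SE), and without that array they were 0.24 and -0.22. Of 8 temperature responsive genes 7 were measured and 0 passed in limma, with 0 at an unadjusted p under 0.05, where 10.6% of all genes were. The largest differences were those of the heat shock genes Hspa1a at 1.15 ± 0.61 (SE) and Dnajb1 at 0.80 ± 0.69 (SE), which were 0.34 and -0.17 without knockout replicate 2, and of the cold-inducible Rbm3 at 0.24 ± 0.14 (SE), which was 0.16 without wild type replicate 2.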

How the data were processed

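The authors deposited 1 table of log2 expression values for 28856 probe sets on 7 arrays, made from 100 ng of total RNA per sample per the labels' protocols. The sources used here name no background correction, normalization or software. Base 2 is inferred, since values ran from 4.41 to 14.65 and a natural log of a 16-bit signal ends at 11.09. Array medians were 7.50 to 7.58. Probe sets were named through GEO's platform annotation, and 21789 had 1 symbol (1621 several, 5446 none). They stood for 19939 genes, each counted through its brightest probe set.

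Knockout minus wild type was fitted in limma 3.58.1 (R 4.3.3; lmFit, eBayes, no covariate), with Benjamini-Hochberg adjustment over the 21789 probe sets. Members, lists and the rule for named genes were chosen with earlier results of these data known. The rule named the core and other clock genes, Prkaa1 and Prkaa2, 5 genes most like Arntl and Dbp each, and 3 genes of largest difference in 4 further lists. Correlations used all 5040 orders of the arrays. The fit was tested on simulated data. Alternatives were a replicate block, scaling, array weights, leaving out dim probe sets, another prior, other probe set choices and leaving out arrays.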

Additional observations from a re-analysis of the deposited data

Results flagged for a closer look

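Among 39 genes examined, 5 had 1 wild type array whose gap to its nearest neighbour filled most of the range of the 4 wild type arrays. Chance flags about 1 in 20 such groups. Among clock genes, Ciart was low in wild type replicate 2, at 7.08 against 7.18 to 7.20 in the other wild type arrays, and Fbxl21 was low in wild type replicate 3, at 6.19 against 6.24 in each of the others. Both gaps are small in log2 units. The second probe set of Ciart read 6.99, 6.54, 7.12 and 6.75 in wild type replicates 1 to 4. Replicate 2 was again the lowest of the wild type arrays there, but it did not stand apart. Prkaa2 was low in wild type replicate 2, at 12.03 against 12.28 to 12.31. Pdk4 was low in wild type replicate 1, at 11.29 against 12.66 to 12.89. Atf3 was high in wild type replicate 2, at 10.02 against 8.41 to 8.64. None of the 10 core clock genes was among them, although wild type replicate 2 was lowest or highest of the 4 for Arntl, Clock, Per2, Per3, Nr1d1, Nr1d2 and Dbp.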

How the results depend on the processing

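No core or other clock gene passed an adjusted p of 0.05 in limma under any of the 15 alternative fits run for each gene. The sign of the difference was the same in all of them for 4 of the 10 core genes (Per2, Cry1, Nr1d1 and Nr1d2) and for 11 of the 25 clock genes. Not all of these fits check the sign separately. For core genes, leaving out dim probe sets, another prior and other probe set choices left the difference unchanged. The replicate block gave the same difference as leaving out wild type replicate 4, whose number no knockout array shares. The count of 5 genes called among all genes was 0 with the replicate block, 72 at an adjusted p under 0.10, and 0 to 14 with 1 array left out. The replicate numbers were not taken as pairs: deviations from the group means correlated at 0.30, 0.154 and -0.197 between same-numbered arrays, and 2 of 3 knockout arrays were closest to their own number. The count of core genes with an unadjusted p under 0.05 in limma, 0 as fitted, was 1 with the block (Nr1d1, at -0.24), after quantile normalization (Cry1, at -0.17), and without knockout replicate 2 (Cry1, at -0.21), wild type replicate 1 (Per2, at 0.17) or wild type replicate 2 (Nr1d2, at -0.31). Signs turned with the block for Arntl (0.014), Per3 (-0.004), Dbp (-0.088) and Usp2 (-0.077), with median centring for Dbp (-0.0062) and Usp2 (-0.0033), and with array weights for Arntl (0.21), Per1 (0.15), Per3 (-0.094), Dbp (-0.16), Rora (-0.015) and Timeless (-0.0037). The cause was not tested. With 1 array left out, differences that changed sign ran from -0.22 to 0.16 for Arntl, -0.17 to 0.026 for Clock, -0.60 to 0.14 for Per1, -0.15 to 0.15 for Per3, -0.19 to 0.034 for Cry2 and -0.24 to 0.22 for Dbp. They ran from -0.037 to 0.11 for Arntl2, -0.032 to 0.046 for Rora, -0.0086 to 0.33 for Ciart, -0.46 to 0.43 for Nfil3, -0.012 to 0.035 for Csnk1e, -0.083 to 0.012 for Btrc, -0.034 to 0.085 for Timeless and -0.077 to 0.11 for Usp2. They ran from -0.22 to 0.71 for Cebpd and -0.17 to 1.32 for Dnajb1. The dim filter kept all 10 core and 13 of 15 other clock genes. It left out Rorb, at 6.47 to 6.65 over the arrays, and Fbxl21, at 6.19 to 6.44. That alternative therefore gave no value for them, and their small differences and gaps are those of dim probe sets. The correlation of Arntl with Dbp, with alternatives chosen after seeing the data, ran from -0.94 without the 2 arrays farthest from the median of Dbp to -0.59 without the 2 farthest from that of Arntl, and was -0.91 after quantile normalization.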

Other observations

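Hsp90aa1, the inducible form of the HSP90 chaperone, was named after its values were seen. It read 10.54, 11.73 and 10.37 in knockout replicates 1 to 3, against 10.16, 11.75, 10.35 and 10.43 in wild type replicates 1 to 4, so replicate 2 was more than 1 log2 unit above every other array in each genotype. These were also the 2 arrays with the highest Arntl and Nfil3, and they were the highest of each genotype in the other 2 probe sets of the gene too. Hsph1, a co-chaperone of HSP70 and also named after its values were seen, read 10.45, 10.67 and 9.85 in knockout muscle, against 10.09, 11.17, 10.29 and 10.52 in wild type muscle. Fbxo32, the muscle ubiquitin ligase atrogin-1, likewise named afterwards, read 11.48, 11.41 and 10.87 in knockout muscle, against 11.72, 9.83, 11.43 and 10.90 in wild type muscle, and was lowest in wild type replicate 2. Wee1, a kinase of the cell cycle with a daily rhythm in mouse liver, was also named outside the rule for named genes. It read 8.12, 8.44 and 8.08 in knockout muscle, against 8.16, 7.61, 8.08 and 7.92 in wild type muscle. Wee1 was also lowest in wild type replicate 2. Whether any of this follows the hour of collection, feeding or handling was not tested.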
